A study of Mus musculus with 8 samples.

Results

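The MHC class II genes described here are the 7 genes Cd74, H2-Aa, H2-Ab1, H2-Eb1, H2-DMa, H2-DMb1 and Ciita, which were found by symbol among the 29955 gene names listed for every library. They were chosen by family, and the family was selected on the genotype difference in LK cells, where Cd74 stood apart, so that values of the genotype contrast in LK cells are given as a description without a test. RNA-seq had been performed on 8 libraries of mouse bone marrow cells in 4 groups of 2: LSK and LK cells, each from WT and from Ripk3-/- mice. LSK cells (Lin- Sca1+ Kit+) hold the stem and multipotent progenitor cells, and LK cells, labelled Lin- Kit+ and by the methods of the study also negative for Sca1, hold the myeloid progenitors. The labels give the strain background as CD57BL6/J for all groups and the genotype as wild type or Ripk3-KO, that is, loss of Ripk3, a kinase of necroptosis. The labels state that no treatment was given, whereas the methods of the study describe repeated low doses of X-rays with collection a month after the last dose, shared by all groups. The age of the mice, the number of mice per library and whether both libraries of a group came from different mice were not given in the sources used here, so that p-values measure the spread between these libraries, which may be technical.

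The libraries held 9782166 to 16280811 reads assigned to genes. Levels are given as CPM, reads scaled by a TMM factor to a fixed library total, within each population where called normalised CPM and over all libraries where called common-scale CPM. For the WT LSK replicates Ripk3 itself stood at 162 and 168 normalised CPM, for Ripk3-/- LSK at 3.38 and 1.08, for WT LK at 144 and 150, and for Ripk3-/- LK at 16.2 and 10.6. All WT libraries held Xist reads (1589 to 4050) and no reads of Eif2s3y, Uty or Kdm5d, while the Ripk3-/- libraries held 723 to 1010 reads of the Y-linked Eif2s3y and at most 13 of Xist, so sex and genotype cannot be told apart. Ly6a, which encodes Sca1, was at 123 to 207 common-scale CPM in the 4 LSK libraries and at 0.142 to 4.68 in the 4 LK libraries, as the sort requires.

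MHC class II molecules present peptides from the endosome to CD4+ T cells. An alpha chain (H2-Aa) and a beta chain (H2-Ab1) form I-A, while H2-Eb1 encodes the beta chain of I-E, whose alpha gene carries a defective promoter in C57BL/6 mice. The invariant chain Cd74 guards the empty groove during transport, and the H2-DM heterodimer (H2-DMa with H2-DMb1) exchanges the last fragment of Cd74 for peptide. Ciita is the transactivator of these genes and binds no DNA itself. It is recruited by the RFX, CREB and NF-Y factors, which occupy the X and Y boxes shared by class II promoters. Dendritic cells, B cells and macrophages are the classical class II cells, and class II is also known on stem and progenitor cells of the bone marrow.

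The stretches before the start sites of H2-Aa and H2-Eb1 are shown because they carry the spaced X and Y letters by which class II promoters are recognised. They are RefSeq sequence of GRCm38.p6, read 5′ to 3′ on the strand of the gene, over the 120 bases before the start, and the capitals mark the letters AACTNTGA or AACTNNTGA (X box) and GATTGG (core of the Y box). The first lies at chr17:34287824-34287943 on the minus strand and the second at chr17:34305747-34305866 on the plus strand.
H2-Aa: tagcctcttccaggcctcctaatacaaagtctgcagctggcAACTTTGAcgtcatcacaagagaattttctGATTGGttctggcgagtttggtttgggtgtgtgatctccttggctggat
H2-Eb1: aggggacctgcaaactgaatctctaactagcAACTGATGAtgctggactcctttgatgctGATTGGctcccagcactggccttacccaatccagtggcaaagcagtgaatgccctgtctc

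The X letters began 79 bases before the start of H2-Aa and 89 bases before that of H2-Eb1, and the Y core followed 30 and 29 bases further on. In H2-DMb1 the X letters began 92 bases before the RefSeq start and the Y core again 30 bases further on, in a stretch that GENCODE M21 places inside the 5′ UTR and that is not printed. The letters were chosen after these windows had been read. Over all 32851 RefSeq windows of 300 bases (250 before and 50 after the start), searched on both strands, 16.1% held GATTGG, 7.23% held the X letters, and 0.14% (46 windows) held the X letters followed on the same strand by GATTGG within 40 bases. Of the 7 genes, 4 had windows in the table (5 windows). Both H2-DMa windows lacked the X letters, and 1 of them held GATTGG. Windows of Cd74, H2-Ab1 and Ciita were not used here. A match of letters is a description of the sequence and does not show a bound site.

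Class II transcripts were far more abundant in LSK than in LK cells. In common-scale CPM, the classical chains and the invariant chain were 4.86- to 11.5-fold higher in LSK cells, H2-DMa was 1.97-fold higher and H2-DMb1 was nearly level at 1.15-fold. In bulk samples, fewer cells that express a gene and less RNA per cell cannot be told apart. This contrast averages both genotypes, and the genotype difference that chose the family does not enter it.

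Cd74, at chr18:60803848-60812652 in GRCm38, was at 406 and 439 common-scale CPM (WT LSK), 455 and 395 (Ripk3-/- LSK), 28.8 and 26.0 (WT LK) and 54.8 and 73.5 (Ripk3-/- LK). Every LSK library lay above every LK library. The log2 difference was 3.31 (SE 0.149, limma adjusted p = 9.6e-14), a 9.27-fold ratio of the means. H2-Aa (chr17:34282744-34287823) was at 135 and 184 (WT LSK), 203 and 197 (Ripk3-/- LSK), 13.2 and 6.63 (WT LK) and 22.8 and 19.99 (Ripk3-/- LK). Its libraries were separated in the same way, with the greatest log2 difference of the 7 genes, 3.55 (SE 0.213, limma adjusted p = 1.6e-11). H2-Ab1 (chr17:34257689-34269419) was at 455 and 466 (WT LSK), 506 and 390 (Ripk3-/- LSK), 92.5 and 68.5 (WT LK) and 100 and 113 (Ripk3-/- LK). The I-A beta chain thus kept more of its level in LK cells than its alpha partner, with a log2 difference of 2.29 (SE 0.141, limma adjusted p = 2.5e-11). The difference between the partners was not tested.

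H2-Eb1 (chr17:34305867-34316674) was at 71.7 and 90.6 common-scale CPM (WT LSK), 97.6 and 97.5 (Ripk3-/- LSK), 5.34 and 7.92 (WT LK) and 14.1 and 14.8 (Ripk3-/- LK). It differed by 3.06 on the log2 scale (SE 0.232, limma adjusted p = 8.4e-10), although an antisense gene, Gm20513, overlaps it and the use of strand in counting was not stated. H2-DMa (chr17:34119541-34139101) was at 399 and 485 (WT LSK), 446 and 427 (Ripk3-/- LSK), 256 and 240 (WT LK) and 192 and 204 (Ripk3-/- LK). The smaller log2 difference of 0.98 (SE 0.121, limma adjusted p = 1.5e-06) still left every LSK library above every LK library, and the locus overlaps Brd2 on the other strand. H2-DMb1 (chr17:34153072-34160230) was at 37.1 and 63.2 (WT LSK), 52.0 and 41.7 (Ripk3-/- LSK), 52.0 and 50.5 (WT LK) and 30.9 and 35.1 (Ripk3-/- LK). These ranges overlapped and the difference of 0.20 (95% confidence interval -0.236 to 0.645, limma adjusted p = 0.48) did not pass the test. Reads of H2-DMb1 may be shared with its near-identical neighbour H2-DMb2, which was at 2.45 to 13.3 normalised CPM over the 8 libraries.

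Ciita (chr16:10480059-10528418) was the scarcest of the 7 genes, with 5.49 and 18.5 common-scale CPM (WT LSK), 7.12 and 10.3 (Ripk3-/- LSK), 0.62 and 0.775 (WT LK) and 6.99 and 2.14 (Ripk3-/- LK). Replicates differed more than for the other members, and 1 Ripk3-/- LK library reached the LSK range. The log2 difference was 1.83 (SE 0.464, limma adjusted p = 0.0038), and in the Ripk3-/- libraries alone it was 0.94 and no longer passed (limma adjusted p = 0.31). The locus overlaps the protein-coding gene Dexi on the other strand, and the use of strand in counting was not stated.

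Thus 6 of the 7 genes passed the test as higher in LSK cells and 0 as lower, beside 13.7% higher and 20.2% lower of all 15757 genes tested. All 4 LSK libraries lay above all 4 LK libraries for 5 of the 7 genes, against 11.3% of all genes in that direction and 16.7% in the other. The median log2 difference of the 7 genes was 2.28, and that of all genes 0.069. Median centering and quantile normalisation shifted the median of all genes by -0.147 and -0.163, and taking the deposited values, scaled within each population, shifted it by 0.347. With the deposited values H2-DMb1 also passed (0.57, limma adjusted p = 0.043). Of all called genes, 40.4% were higher in LSK, which became 28.6% after median centering and 72.5% with the deposited values.

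**Figure D1:**
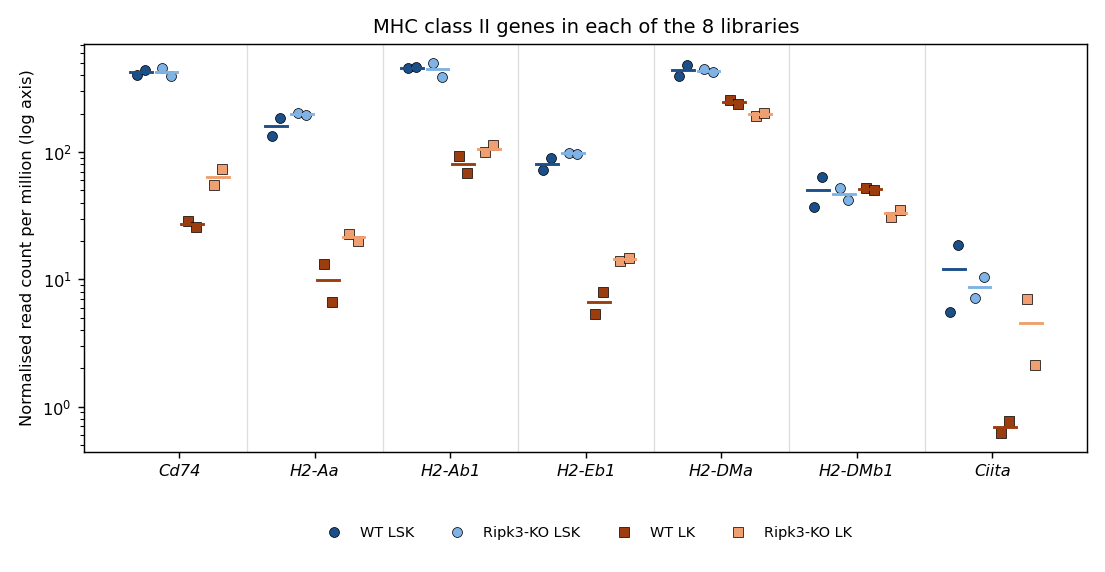
Level of each MHC class II gene in each library, in common-scale CPM (log axis); points are libraries, short lines are means of 2, circles are LSK and squares LK. Cd74, H2-Aa, H2-Ab1, H2-Eb1 and H2-DMa separate LSK from LK without overlap, H2-DMb1 does not, and Ciita is the scarcest.

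**Figure D2:**
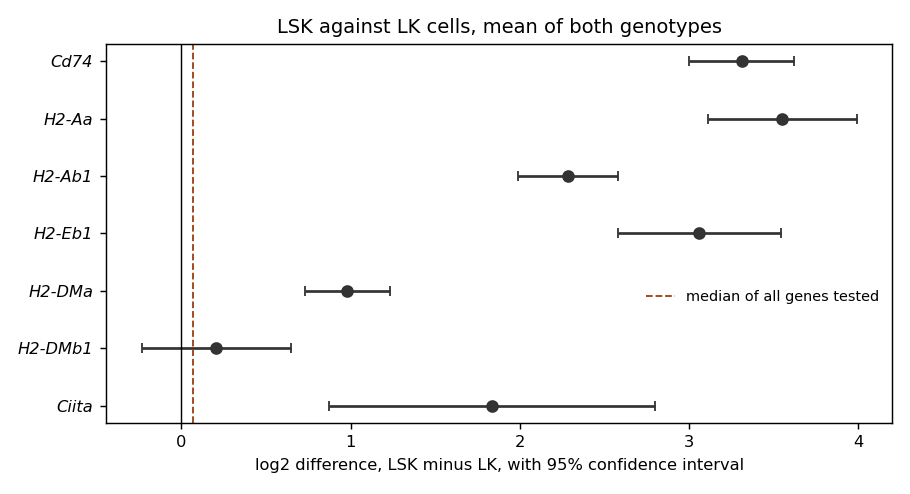
The log2 difference LSK minus LK for each gene (points) with its 95% confidence interval (bars), averaged over genotypes; the dashed line is the median of all genes, 0.069. The intervals of 6 genes lie above 0 and that of H2-DMb1 spans it.

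Levels of different genes were compared after division by the length of the principal GENCODE transcript, as common-scale CPM per kilobase. In LSK cells the order was H2-Ab1 (375 ± 39.8, SD, n = 4 libraries), Cd74 (301 ± 19.8), H2-DMa (265 ± 21.9), H2-Aa (159 ± 27.4), H2-Eb1 (53.5 ± 7.31), H2-DMb1 (34.5 ± 8.27) and Ciita (1.72 ± 0.96). The neighbours H2-Ab1 and Cd74, Cd74 and H2-DMa, and H2-Eb1 and H2-DMb1 overlapped in range, and the other neighbours did not. In LK cells H2-DMa led (135 ± 18.1), followed by H2-Ab1 (77.2 ± 15.5), Cd74 (32.5 ± 16.0), H2-DMb1 (30.0 ± 7.62), H2-Aa (13.9 ± 6.44), H2-Eb1 (6.31 ± 2.77) and Ciita (0.438 ± 0.497). Here Cd74 overlapped with H2-DMb1, and H2-Aa with H2-Eb1. This order joins both genotypes, and within LK cells it differed between them: H2-DMb1 (36.5, mean of 2 libraries) was above Cd74 (19.4) in WT, whereas Cd74 (45.5) was above H2-DMb1 (23.5) in Ripk3-/-. By the means within each genotype, the peptide exchange genes stood higher in the order in LK than in LSK cells, and Cd74 and the classical chains lower.

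In LSK cells no difference between Ripk3-/- and WT was detectable for any of the 7 genes. None passed the test in either direction (0 of 7 by limma and 0 by edgeR), beside 0.892% higher and 1.27% lower of all 16817 genes tested by limma. At an unadjusted limma p under 0.05 there were also 0 of 7, beside 3011 of those 16817 genes. In normalised CPM, scaled within the LSK libraries, Cd74 was at 463 and 501 in WT against 514 and 452 in Ripk3-/- LSK cells. The genotypes overlapped, and the log2 difference was 0.00 with a 95% confidence interval of -0.428 to 0.431. H2-Ab1 was at 518 and 531 in WT against 571 and 445 in Ripk3-/- (95% confidence interval -0.465 to 0.351), and H2-DMa at 455 and 553 against 503 and 488 (-0.365 to 0.332). These 3 genes were measured most precisely, and the genotypes overlapped for all of them.

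H2-Aa was at 153 and 210 in WT against 229 and 225 in Ripk3-/- LSK cells, and H2-Eb1 at 81.7 and 103 against 110 and 111. For these 2 genes both Ripk3-/- libraries lay above both WT libraries, which was so for 21.4% of all genes (23.2% in the other direction), and neither log2 difference (0.34 with SE 0.299, and 0.27 with SE 0.323) passed the test (limma adjusted p = 0.59 and 0.70). H2-DMb1 was at 42.3 and 72.0 in WT against 58.7 and 47.6 in Ripk3-/-, with overlap (95% confidence interval -0.682 to 0.559). Ciita was at 6.26 and 21.0 in WT against 8.04 and 11.8 in Ripk3-/-, with overlap and a 95% confidence interval of -1.6 to 1.14 that leaves room for more than a doubling in either direction. The median over the 7 genes was -0.0164 and that over all genes -0.00864.

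In LK cells, the contrast that had selected the family, the classical chains, Cd74 and Ciita were higher and the H2-DM genes lower in the Ripk3-/- libraries. In normalised CPM, scaled within the LK libraries, Cd74 was at 25.3 and 23.1 in WT against 48.2 and 64.1 in Ripk3-/- LK cells, a ratio of 2.33 (log2 difference 1.17, SE 0.206). H2-Aa was at 11.5 and 5.88 against 20.1 and 17.4 (log2 difference 1.09, SE 0.298), and H2-Eb1 at 4.69 and 7.02 against 12.4 and 12.9 (1.01, SE 0.327). The alpha chain of I-A and the beta chain of I-E were thus both higher in the Ripk3-/- libraries, at ratios of 2.16 and 2.16. H2-Ab1, the beta chain of I-A, was at 81.1 and 60.7 in WT against 88.0 and 98.7 in Ripk3-/-, a ratio of 1.32. With single libraries left out, the log2 difference was 0.97 to 1.37 for Cd74. It was 0.65 (without WT LK replicate 2) to 1.52 (without WT LK replicate 1) for H2-Aa and, without the same libraries, 0.20 to 0.61 for H2-Ab1 and 1.26 to 0.77 for H2-Eb1.

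H2-DMa was at 225 and 212 in WT LK cells and at 169 and 178 in Ripk3-/- LK cells, a ratio of 0.794. H2-DMb1 was at 45.7 and 44.7 against 27.2 and 30.6, a ratio of 0.64. Both subunits of the peptide exchange heterodimer were therefore on the other side of WT from the chains that they act upon. Without overlap, 5 of the 7 genes were higher and 2 lower, beside 20.1% and 19.9% of all 13949 genes, and 0.1% higher and 0.373% lower of all genes were called by limma; nothing is read from this count, since the contrast chose the genes. The median of the 7 was 1.01 and that of all genes 0.00928.

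Ciita rested on few reads in LK cells. The WT libraries held 8 and 9 reads (exact Poisson 95% intervals of 3.45 to 15.8 and 4.12 to 17.1) and the Ripk3-/- libraries 97 and 30 (78.7 to 118 and 20.2 to 42.8), which is 0.543 and 0.687 against 6.15 and 1.86 normalised CPM. The intervals cover counting error only. Both Ripk3-/- libraries were above both WT libraries, but they differed from each other by more than their counting error, and the log2 difference of 1.49 (SE 0.653) was 0.83 without Ripk3-/- replicate 1 and 2.15 without Ripk3-/- replicate 2. Whether the genotype difference differs between LK and LSK cells was not tested, because the LK values chose the genes.

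**Figure D3:**
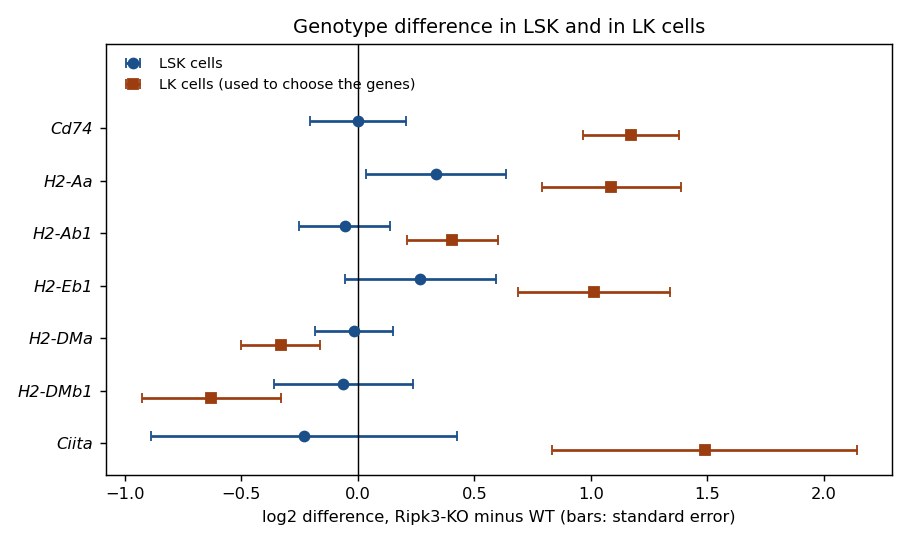
The log2 difference Ripk3-/- minus WT (labelled Ripk3-KO) in LSK cells (circles) and LK cells (squares), with standard errors as bars. In LSK cells all values lie between -0.23 and 0.34; in LK cells, whose values chose the genes, 5 are above 0 and H2-DMa and H2-DMb1 are below.

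The LK level of each gene was set beside that of genes that mark LSK cells. As a percentage of the mean of the 4 LSK libraries, Cd74 stood at 6.79% and 6.13% in WT LK and 12.9% and 17.3% in Ripk3-/- LK, and H2-Eb1 at 5.98% and 8.87% against 15.7% and 16.6%. Among the LSK markers, Flt3, the receptor of lymphoid-primed progenitors, stood at 10.3% in both WT and 16.7% and 13.01% in Ripk3-/- LK libraries. Ly6a stood at 1.21% and 0.518% against 2.82% and 0.0855%, and Procr and Mecom overlapped between the genotypes. Hlf, a stem cell transcription factor, stood at 7.80% and 5.64% against 8.67% and 8.01%. Cd74, H2-Eb1, Flt3 and Hlf were thus higher in both Ripk3-/- LK libraries, while Ly6a was below 3% in all 4. Within each genotype, the LSK over LK ratio of common-scale means was 15.4 in WT and 6.63 in Ripk3-/- for Cd74. For H2-Eb1 it was 12.2 and 6.76, for Flt3 7.15 and 8.52, and for Hlf 9.8 and 16.1. The ratio was 101.6 in WT and 77.35 in Ripk3-/- for Ly6a, 50.27 and 91.9 for Procr, and 11.56 and 19.51 for Mecom. It was thus lower in Ripk3-/- for Cd74, H2-Eb1 and Ly6a, and higher for Flt3, Hlf, Procr and Mecom. For Ly6a it rests on LK levels of 0.1423 to 4.683 common-scale CPM. The part of remaining LSK-like cells in the LK values was not tested.

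**Figure D4:**
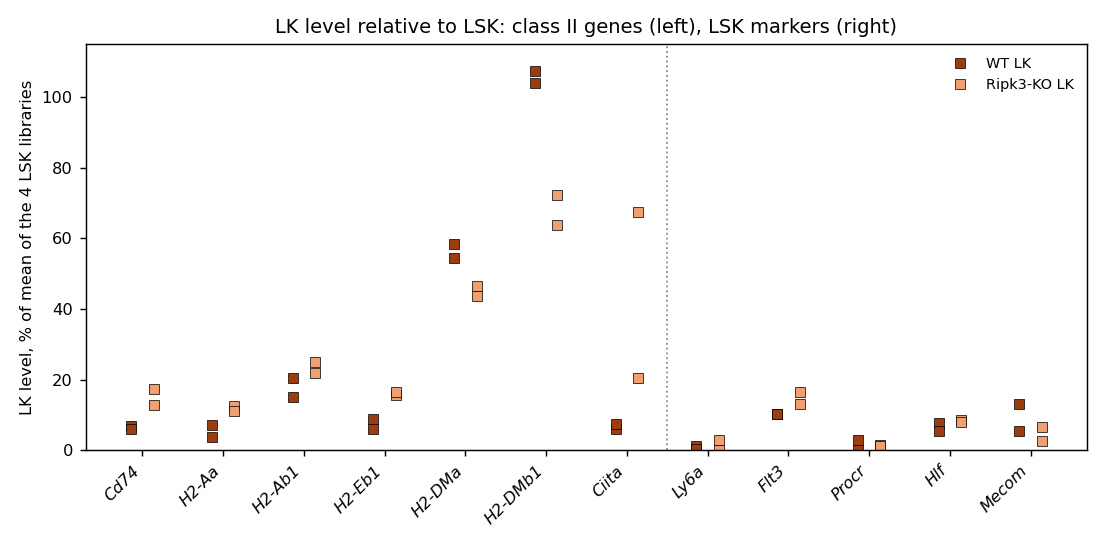
Level in each LK library as a percentage of the mean of the 4 LSK libraries, for the class II genes (left of the dotted line) and 5 genes that mark LSK cells (right). Cd74 lies at 6.13% and 6.79% in WT and at 12.9% and 17.3% in Ripk3-/-, whereas Ly6a lies below 3% in every LK library.

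Markers of mature class II cells were summed over each list in normalised CPM. The 12 dendritic cell markers summed to 868 to 879 in WT LK and 715 to 876 in Ripk3-/- LK. By genotype, 0 of 8 tested genes were called in LK cells, beside 0.1% higher and 0.373% lower of all genes. Most of the dendritic cell sum was Cst3 and Irf8, which progenitors also express. Of the other listed genes, Itgax, Clec9a and Xcr1 stayed at 0 to 3.47 over the LK libraries. Zbtb46 reached 5.83 to 11.75 there, while Clec10a reached 5.14 to 8.09. Zbtb46 was also called lower in LSK than in LK cells (log2 difference -1.02, limma adjusted p = 0.044). The 11 B cell markers summed to 71.1 to 77.7 in WT and 60.2 to 69.4 in Ripk3-/- LK, with Cd79b as the main contributor and Ms4a1 and Pax5 at 0 to 2.03. The 10 monocyte and macrophage markers summed to 292 to 334 in WT and 276 to 302 in Ripk3-/- LK, and the 6 T cell markers to 17.6 to 19.1 and 11.9 to 12.6. Single genes of these lists lay above WT in both Ripk3-/- LK libraries: 1 of 12 dendritic cell, 2 of 11 B cell, 1 of 10 monocyte and macrophage and 0 of 6 T cell markers, while 5, 2, 4 and 5 lay below. Of all 13949 genes tested, 20.1% lay above and 19.9% below in this way, so nothing is read from these small counts. Cd209a, a lectin of monocyte-derived dendritic cells, was at 0 and 0.305 in WT against 1.97 and 2.30 in Ripk3-/- LK (log2 difference 1.45, limma adjusted p = 0.73). Ebf1, a B lineage transcription factor, was at 0 in both WT libraries against 2.98 and 0.559. Igll1, the surrogate light chain, was at 0.408 and 2.21 against 7.36 and 2.24 (adjusted p = 0.83), and the monocyte chemokine receptor Ccr2 at 44.0 and 40.8 against 62.5 and 44.0 (adjusted p = 0.96). These 4 genes, named after their values were seen, are those counted above WT, and more genes of the lists lay below. For Igll1 the lower Ripk3-/- value was barely above the higher WT value (2.235 against 2.213), as for Ccr2 (44.03 against 43.96). The part of the 4 genes in the Cd74 difference was not tested. In LSK cells 0 genes of these 4 lists were called by genotype, beside 0.892% higher and 1.27% lower of all genes. The sums there were 709 to 849 in WT and 613 to 645 in Ripk3-/- for dendritic cell markers. For B cell markers they were 116 to 130 against 100.6 to 127.

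Mature neutrophil markers, in contrast, moved with genotype in both populations. The 10 genes summed to 785 to 788 in WT LK and 1690 to 1694 in Ripk3-/- LK, and to 713 to 771 and 2350 to 2782 in LSK. By limma, 5 of 10 were called higher in LK and 7 of 10 in LSK, beside 0.1% and 0.892% of all genes tested. Ltf, a granule protein, was at 35.3 and 36.9 in WT LK and 218 and 228 in Ripk3-/- LK. In LSK cells Flt3 rose by 0.78 on the log2 scale (limma adjusted p = 0.03) and Gata1, an erythroid factor, fell by 1.32 (limma adjusted p = 0.013). The 7 LSK markers summed to 318 to 326 in WT LK and 409 to 448 in Ripk3-/- LK, and the 7 LK markers to 61840 to 70460 and 48840 to 63480. The part of these neutrophil, LSK and LK markers in the class II values was not tested.

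H2-Oa and H2-Ob, the chains of the H2-DO heterodimer that restrains H2-DM, were at 21.4 to 49.6 and 75.9 to 131 normalised CPM in LSK cells. In LK cells they were at 7.93 to 8.83 and 23.2 to 27.6. Both were higher in LSK on the common scale (log2 differences 1.52 and 1.62, limma adjusted p = 0.00036 and 8.4e-07), and neither passed the genotype test in LSK cells (limma adjusted p = 0.55 and 0.44) or LK cells (0.99 and 0.95). H2-Ea-ps, the inactive I-E alpha gene, was at 0 to 3.77 and H2-Eb2 at 0 to 2.58 over the 8 libraries. Of the 5 listed genes in the files, 2 of 4 tested were called higher in LSK, beside 13.7% of all 15757 genes. By genotype, 0 of 5 and 0 of 3 were called in LSK and LK cells. Of all genes, 0.892% were called higher and 1.27% lower in LSK cells, and 0.1% and 0.373% in LK cells.

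Of the 7 factors of the class II promoter, Nfya was called higher and Nfyc lower in LSK, and the other 5 were not called. Among all 15757 genes tested, 13.7% were called higher and 20.2% lower, so these counts are near the shares of all genes. Rfx5, the DNA-binding subunit of RFX, was at 24.2 and 41.3 (WT LSK), 48.6 and 62.7 (Ripk3-/- LSK), 23.8 and 18.2 (WT LK) and 22.3 and 32.8 (Ripk3-/- LK) normalised CPM. It lay higher in both Ripk3-/- LSK libraries than in WT without passing the test (log2 difference 0.78, limma adjusted p = 0.24), and the LSK minus LK difference was 0.43 (limma adjusted p = 0.18). Nfyc, a subunit of NF-Y, was at 76.0 and 100.8 in WT LSK and 43.1 and 40.3 in Ripk3-/- LSK. Nfyc fell by 1.05 on the log2 scale (SE 0.251, limma adjusted p = 0.03). It was the only gene of the family's pathway lists called by genotype in LSK cells, beside 0.892% higher and 1.27% lower of all genes. That call was lost in 8 of 18 alternatives, among them leaving out WT replicate 2 or either Ripk3-/- LSK library. The LSK minus LK calls of Nfya (0.997, limma adjusted p = 0.03) and Nfyc (-0.54, 0.025) were lost in 11 and 8 of 21 alternatives, and that of Nfyc turned to 0.04 in 1 of them.

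Of 9 genes in the files that process peptides or turn class II over, 3 were called higher and 3 lower in LSK than in LK cells. The shares over all 15757 genes tested were 13.7% higher and 20.2% lower. Ctsl, which cleaves the invariant chain in the thymus, was at 54.5 to 94.3 CPM in LSK and 30.0 to 44.3 in LK cells on the common scale (log2 difference 0.89, limma adjusted p = 0.0011), and Cd83, which stabilises class II at the surface, at 4.71 to 10.2 and 0.64 to 1.98 (1.90, 0.0014). Ctsb was lower in LSK (-0.94, limma adjusted p = 1.2e-06), as was the ubiquitin ligase gene March8 (-1.84, 0.0002), whose name stands in the files as a date. Ctss, the protease that trims the invariant chain in antigen-presenting cells, was at 42.2 to 72.2 in LSK and 33.9 to 42.8 in LK cells and did not pass (0.50, limma adjusted p = 0.058). By genotype, 0 of 9 were called in LSK and 0 of 8 in LK cells. Of all genes, 0.892% were called higher and 1.27% lower in LSK cells, and 0.1% and 0.373% in LK cells.

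Upstream of Ciita, interferon gamma acts through its receptor, the JAK kinases and Irf1. Of 7 genes tested, 3 were called higher and 2 lower in LSK than in LK cells, beside 13.7% and 20.2% of all 15757 genes. Ifngr1, the receptor's binding chain, was at 171 to 276 CPM in LSK and 685 to 931 in LK cells on the common scale, opposite to the class II genes (log2 difference -1.80, limma adjusted p = 4.3e-10). Irf1 was higher in LSK (0.65, limma adjusted p = 0.0002), as were Socs1 (1.25, 0.014) and Jak1 (0.38, 0.018). In LK cells Irf1 was at 268 and 280 normalised CPM in WT and 163 and 166 in Ripk3-/-. It fell by 0.74 on the log2 scale (SE 0.166, limma adjusted p = 0.045). Irf1 was the only gene of the list called there, beside 0.1% higher and 0.373% lower of all genes. That call was lost in 13 of 18 alternatives, among them leaving out any of the 4 LK libraries. The population call of Jak1 was lost in 6 of 21 alternatives (median centering, and leaving out replicate 2 of WT or Ripk3-/- LK, among them) and that of Socs1 in 4 (quantile normalisation, and leaving out WT LSK replicate 2 or Ripk3-/- LK replicate 1, among them). In LSK cells 0 of 8 were called by genotype, beside 0.892% higher and 1.27% lower of all 16817 genes.

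Of 11 MHC class I genes, 5 were called higher and 1 lower in LSK than in LK cells, beside 13.7% and 20.2% of all 15757 genes. B2m, the light chain of class I, was at 2694 to 4282 CPM in LSK and 1185 to 1447 in LK cells on the common scale (log2 difference 1.25, limma adjusted p = 4.1e-08). Nlrc5, the class I counterpart of Ciita, was at 48.2 to 76.8 and 14.4 to 32.0 (1.43, limma adjusted p = 0.00014). H2-K1 and H2-D1, whose reads may be shared among class I copies, were higher by 0.67 and 0.44 (limma adjusted p = 4.6e-05 and 0.0022). By genotype 0 of 11 were called in LSK and 0 of 11 in LK cells. Of all genes, 0.892% were called higher and 1.27% lower in LSK cells, and 0.1% and 0.373% in LK cells. Nlrc5 differed by 0.06 in LSK (limma adjusted p = 0.95) and by -0.02 in LK cells. Without overlap, 0 of 11 lay above WT and 5 below in Ripk3-/- LK cells, beside 20.1% and 19.9% of all 13949 genes. The direction of the list was not tested.

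Over the 8 libraries, the 5 genes outside the family whose log2 level on the common scale was most like the mean of Cd74, H2-Aa, H2-Ab1 and H2-Eb1 were Npdc1 (Pearson r = 0.997), Septin 1, whose name stands in the files as a date (0.995), Myof (0.994), Slc16a11 (0.993) and Esam (0.991), among 10693 genes with a mean of at least 5 common-scale CPM. The 8 libraries fall into the 2 populations, so that r largely describes the step between LSK and LK. Esam, an adhesion molecule of stem cells, was at 96.3 to 157 in LSK and 2.01 to 10.7 in LK cells. With that mean of 4 genes, H2-DMa had r = 0.902, Ciita 0.84 and H2-DMb1 0.20. For Ciita the most alike genes were Zfp560 (0.973), Fbn1 (0.948) and AK140543 (0.941).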

How the data were processed

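RNA-seq values of 8 libraries were used as deposited. Reads had been aligned with TopHat to mm9 according to the submitters' processing notes, from stranded mRNA libraries. The counting tool, annotation and use of strand are not given in the sources used here. The signal deposited by the authors is headed FPKM, but 100% of the values above 0 in each library were whole multiples, within 0.01, of 1 step shared by all genes, so they are read counts scaled to CPM by TMM factors within each population, without division by length. The design had assumed FPKM, and its tests were kept on this signal. Reads were recovered from the steps (9782166 to 16280811 per library), and TMM was recomputed over all libraries for the LSK minus LK contrast. Intervals of reads cover counting error only.

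limma 3.58.1 (R 4.3.3) was fitted with 4 group means and a variance trend on log2(value + 1), for genes whose mean reached 1 in the libraries compared, with Benjamini-Hochberg adjustment over all genes and a threshold of 0.05 (two-sided). Fold changes on this scale understate low genes. An exact permutation test of 2 against 2 cannot go below p = 0.333. Alternatives were edgeR 4.0.16 quasi-likelihood on recovered reads, other scalings, filters and pseudocounts, a replicate block and leaving out each library. Scripts were tested on simulated data. Members and lists were chosen with earlier results of these data known. Named genes were the 7 members, Ripk3, Ctss, Rfx5, Nlrc5, B2m, pathway genes called by genotype in LSK, up to 4 per pathway list by p between populations, and the genes most alike in pattern. Irf1 in LK and marker genes were named after their values were seen. Positions and lengths are from GENCODE M21 (GRCm38), a later build than that of the alignment, and promoters from RefSeq (GRCm38.p6).

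Replicate numbers were checked for pairing: deviations of same-numbered libraries correlated at -0.00845 (LSK genotypes), -0.0332 (LK genotypes), 0.00833 (WT populations) and -0.157 (Ripk3-/- populations) over 10797 genes. Same-group libraries differed by 20.8 to 28.9 times the sampling variance and were kept as separate replicates.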

Additional observations from a re-analysis of the deposited data

Results flagged for a closer look

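H2-D1, a class I chain, was higher in both Ripk3-/- LSK libraries (3813 and 3153 normalised CPM, against 2732 and 2927 in WT) and lower in both Ripk3-/- LK libraries (1406 and 1693 against 2128 and 2007). It is given here because the populations moved in opposite directions. The genotype log2 difference in LSK minus that in LK was 0.72 (SE 0.198, limma interaction, adjusted p = 0.19), which did not pass the threshold.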

How the results depend on the processing

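In LSK cells 0 of the 7 genes were called by genotype under any of 18 alternatives, and in the population contrast 5 to 7 were called under 21. Ciita was not called under quantile normalisation (1.31, limma adjusted p = 0.059) or in the Ripk3-/- libraries alone (0.94, adjusted p = 0.31), and H2-DMb1 was called with the deposited values (0.57, adjusted p = 0.043) and changed sign in the WT libraries alone (-0.0787). In LSK cells the uncalled differences of H2-Aa (0.11 to 0.56) and H2-Eb1 (0.10 to 0.43) kept their sign, and those of the other 5 genes changed it in at least 1 alternative. Cd74 turned to -0.0263 with edgeR on DESeq2-type size factors and -0.109 after median centering, which shifted the median of all genes by -0.111, and H2-Ab1 and H2-DMa to 0.0363 and 0.0725 under quantile normalisation. Leaving out single libraries gave -0.0910 to 0.0940 for Cd74, -0.24 to 0.12 for H2-Ab1, -0.16 to 0.12 for H2-DMa, -0.44 to 0.32 for H2-DMb1 and -1.03 to 0.57 for Ciita. In LK cells all 7 genes kept their direction, Ciita between 0.83 and 2.70. Calls between populations were lost for H2-D1 in 2 alternatives and for Irf1 and Cd83 in 1 each. The cause of these changes was not tested.

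Counts over all genes moved more. The LSK genotype count of 363 became 198 without a filter, 209 with edgeR, 218 with DESeq2 size factors, 120 without a variance trend and 195 with each population alone, and 99 (without WT LSK replicate 2) to 262 without single libraries; of the calls, 41.3% were higher, 23.5% after median centering and 31.2% with DESeq2 size factors. The LK count of 66 became 9 (no filter), 39 (quantile), 3 (no trend) and 125 (each population alone), and 13 (without Ripk3-/- LK replicate 1) to 101 (without WT LK replicate 2). The population count of 5351 became 3518 in WT and 2935 in Ripk3-/- libraries, and 3783 to 5230 without single libraries. With the replicate number as a block the counts were 289, 79 and 4817, with 0 and 6 members called; the numbers did not pair the libraries. With the Ripk3-/- numbers crossed, an alternative chosen after seeing the data, 5687 were called.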
